A study of Mus musculus with 8 samples.

Results

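The ERK feedback genes are 10 genes whose transcripts follow the activity of the Ras and ERK kinase cascade: *Dusp4*, *Dusp6*, *Spry1*, *Spry2*, *Spry4*, *Spred1*, *Spred2*, *Etv1*, *Etv4*, and *Etv5*. They were taken by symbol from the FPKM tables of mouse sympathetic ganglia. All 10 were found among the 13506 genes of the E11.5 table and among the 13413 genes of the E14.5 table. FPKM is a fragment count scaled to transcript length and library size, so levels of different genes within a column can be compared.

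RNA was sequenced from pooled ganglia of about 10 embryos per library, with 2 libraries in each of 4 groups (8 in all). At E11.5 the *Isl1* CKO group, labelled Isl1-/-, carried *Wnt1-Cre* and floxed *Isl1* alleles (Isl1 f/f), and the control group carried *Wnt1-Cre* with intact alleles (Isl1 +/+), both on a *Rosa26-tdTomato* background that guided the dissection. *Wnt1-Cre* deletes in the neural crest lineage, so other cells in a ganglion keep *Isl1*. At E14.5 the hypomorphic group (Isl1 f-neo/f-neo) had reduced *Isl1* throughout the embryo, and the control group was wild type. The authors combined both libraries of a genotype into 1 value, and the tables give no read numbers. The depth and the spread between embryos or libraries are therefore unknown, no difference below has a replicate check, and no p-value is given. A gene was counted as higher or lower when FPKM + 0.1 differed at least 1.5-fold, and changes are log2 ratios of FPKM + 0.1, mutant over control, which understate the change of genes with low values.

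ERK is the last kinase of a cascade that receptors for fibroblast growth factors, neurotrophins, and GDNF family ligands switch on through Ras and Raf. Active ERK induces genes that act back on the cascade. Sprouty and Spred proteins restrain the step from receptor and Ras to Raf, dual-specificity phosphatases remove phosphate from ERK, and the ETS transcription factors ETV1, ETV4, and ETV5 (the PEA3 group) carry the response to the nucleus.

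*Isl1* itself (chromosome 13, from 117088478 to 117099896 in mm9) stood at 133 FPKM in control and 40.0 in CKO ganglia at E11.5, and 162 in wild-type and 83.1 in hypomorphic ganglia at E14.5, for log2 ratios of -1.73 and -0.96. The ganglia carried sympathetic markers in every column, with 224 FPKM of *Hand1* and 79.1 of *Gata3* in E11.5 controls and 553 of *Phox2a* in E14.5 wild-type ganglia. Over all genes the log2 ratio had a median of 0.052 at E11.5 (quartiles -0.31 and 0.45) and 0.003 at E14.5 (quartiles -0.11 and 0.13), so the E11.5 groups stood farther apart over the whole table. Erythroid markers held 2.29% of summed FPKM in control and 11.2% in CKO ganglia at E11.5, against 1.26% and 1.55% at E14.5. The E11.5 columns summed to 476289 FPKM in control and 617263 in CKO ganglia. The erythroid marker *Hbb-y* was listed at 7552 FPKM in control and at 0 in CKO ganglia, while the 10 other erythroid markers at E11.5 were higher there. The CKO share and sum thus hold nothing for *Hbb-y*, and whether its 0 is a missing value was not tested. As an alternative, called rescaling without erythroid markers, both columns of a stage were brought to the same sum over all other genes, and the median was then -0.18 at E11.5 and 0.03 at E14.5.

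At E11.5, 4 of the 10 genes exceeded their control level at least 1.5-fold in *Isl1* CKO ganglia (*Dusp4*, *Dusp6*, *Etv4*, and *Spred1*) and 0 were lower. At this threshold 18.9% of all genes were higher and 12.9% lower. Among the 6318 genes with a control FPKM within the range of the members, 20.5% were higher. The median log2 ratio of the 10 genes was 0.44, and 0.20 after rescaling without erythroid markers. After that rescaling 12.2% of all genes were higher and 22.5% lower, and 3 members were higher, *Spred1* no longer among them. At E14.5, 0 members were at least 1.5-fold higher in hypomorphic ganglia and 1, *Etv5*, was lower, against 2.89% and 2.12% of all genes and 2.41% lower among the genes within the members' range of wild-type FPKM. The median of the 10 genes was 0.02 at this stage.

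**Figure D1:**
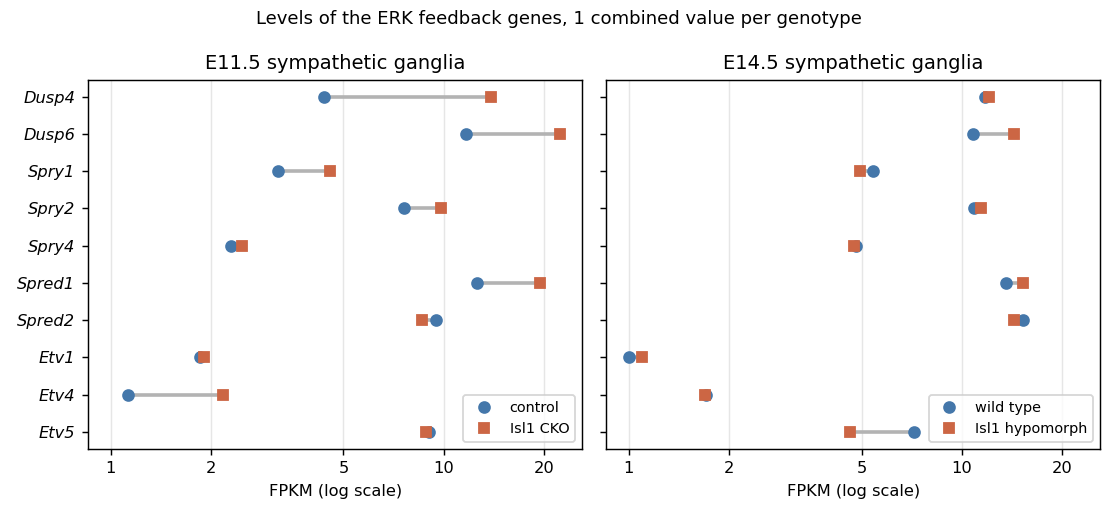
FPKM on a log axis for the 10 ERK feedback genes at E11.5 (left, control circles and Isl1 CKO squares) and E14.5 (right, wild-type circles and Isl1 hypomorph squares), each point being 1 value that combines both libraries. The widest gap is that of Dusp4 at E11.5, from 4.37 to 13.9, and at E14.5 the widest gap is that of Etv5, from 7.17 to 4.63.

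Sequences before the transcription start are shown for *Dusp6* and *Spred1*, both higher in CKO ganglia, and for *Etv5*, lower in hypomorphic ganglia. They are RefSeq entries on GRCm38.p6, 250 bases long and ending 1 base before the start. The table matched 7 of the 10 members. *Dusp4*, *Etv4*, and *Spry4* had no match. Capitals mark every match, on either strand, of the ETS motifs CCGGAA and AGGAAG, the homeodomain core TAAT, the cyclic AMP response core TGACG, the GC box GGGCGG, and CCAAT. A homeodomain core is the kind of sequence that ISL1 and many related factors bind. The *Dusp6* sequence is chr10:99262981-99263230 (plus strand), that of *Spred1* chr2:117120821-117121070 (plus strand), and that of *Etv5* chr16:22439571-22439820 (minus strand).
Dusp6: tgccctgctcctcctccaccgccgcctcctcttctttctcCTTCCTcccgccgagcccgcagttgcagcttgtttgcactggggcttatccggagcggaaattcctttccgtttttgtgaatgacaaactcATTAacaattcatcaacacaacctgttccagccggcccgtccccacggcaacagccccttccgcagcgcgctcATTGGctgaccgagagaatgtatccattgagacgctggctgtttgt
Spred1: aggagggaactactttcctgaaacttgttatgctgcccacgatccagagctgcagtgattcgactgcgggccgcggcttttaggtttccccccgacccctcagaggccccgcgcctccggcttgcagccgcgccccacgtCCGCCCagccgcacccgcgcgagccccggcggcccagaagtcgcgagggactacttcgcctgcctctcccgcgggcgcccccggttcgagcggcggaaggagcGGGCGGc
Etv5: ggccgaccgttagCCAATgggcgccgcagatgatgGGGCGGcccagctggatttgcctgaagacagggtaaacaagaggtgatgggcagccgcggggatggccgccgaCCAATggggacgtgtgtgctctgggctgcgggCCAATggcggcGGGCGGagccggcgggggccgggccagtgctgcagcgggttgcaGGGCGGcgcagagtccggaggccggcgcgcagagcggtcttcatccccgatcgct

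In the *Dusp6* sequence the capitals are AGGAAG on the minus strand, 210 to 205 bases before the start, TAAT on the minus strand, 119 to 116 bases before it, and CCAAT on the minus strand. The *Spred1* sequence held GGGCGG as its only match, in 2 places, and the *Etv5* sequence held GGGCGG in 3 places and CCAAT in 3. *Spred1* and *Etv5* were rich in G and C, at 70.8% and 71.2% against 56.4% in *Dusp6* and a median of 52.4% over all 32851 sequences of this length. Of all these sequences, 12% held CCGGAA, 29.5% AGGAAG, 54.9% TAAT, 17.8% TGACG, 32.7% GGGCGG, and 33.8% CCAAT. None of the 9 member sequences held CCGGAA, and AGGAAG was found for *Dusp6*, *Spred2*, and *Etv1*. These matches describe the letters only. CCAAT was added after the sequences had been read.

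*Dusp4* had the highest log2 ratio of the 10 genes at E11.5. This gene (chromosome 8, from 35870351 to 35882948 in mm9) encodes a nuclear phosphatase of ERK and related kinases. Its level was 4.37 FPKM in control versus 13.9 in CKO ganglia, for a log2 ratio of 1.65 (3.13-fold), and 3.35% of all genes had a higher ratio. At E14.5 it had 11.7 FPKM in wild-type and 12.1 in hypomorphic ganglia, a log2 ratio of 0.05. The E11.5 control value is thus the low one of the 4, and the other columns lie close together. *Dusp6* (chromosome 10, from 98725865 to 98730122) encodes the cytoplasmic phosphatase that is specific for ERK. Its level was 11.7 FPKM in control versus 22.3 in CKO ganglia, for a log2 ratio of 0.93, and 10.8 and 14.3 FPKM in wild-type and hypomorphic ganglia, a log2 ratio of 0.40. Of all genes, 9.77% had a higher ratio than *Dusp6* at E11.5 and 6.54% at E14.5. *Dusp6* was the member with the highest log2 ratio at E14.5, although it was under the 1.5-fold limit there. *Dusp4* held 0.374 FPKM for each FPKM of *Dusp6* in E11.5 control and 0.624 in CKO ganglia, and this quotient, which does not depend on scaling, was 1.09 in wild-type and 0.849 in hypomorphic ganglia at E14.5.

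The *Spred* genes differed from each other. *Spred1* (chromosome 2, from 116947110 to 117008015 in mm9), whose protein brings the Ras inhibitor neurofibromin to the membrane, was at 12.6 FPKM in control versus 19.5 in CKO ganglia. Its log2 ratio of 0.62 lay just past the 1.5-fold limit, and it was 0.39 after rescaling without erythroid markers. The gene of neurofibromin, *Nf1*, had 14.4 and 8.66 FPKM in the same columns, a log2 ratio of -0.73. *Spred2* was at 9.45 FPKM in control versus 8.62 in CKO ganglia, a log2 ratio of -0.13. At E14.5 *Spred1* had 13.6 and 15.2 FPKM and *Spred2* 15.3 and 14.3, for log2 ratios of 0.16 and -0.09. *Spred1* thus exceeded *Spred2* 1.33-fold in E11.5 control and 2.26-fold in CKO ganglia, while in the E14.5 columns these quotients were 0.891 and 1.06.

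The Sprouty genes, which encode inhibitors of receptor tyrosine kinase signaling, stayed under the 1.5-fold limit at both stages. *Spry1* was at 3.18 FPKM in control versus 4.57 in CKO ganglia (log2 ratio 0.51), *Spry2* had 7.61 and 9.80 (0.36), and *Spry4* had 2.30 and 2.48 (0.11, and -0.12 after rescaling without erythroid markers). The order of the 3 genes was the same in all 4 columns, with *Spry2* highest and *Spry4* lowest. At E14.5 *Spry1* had 5.40 FPKM in wild-type and 4.93 in hypomorphic ganglia, *Spry2* had 10.9 and 11.4, and *Spry4* had 4.80 and 4.76. Their log2 ratios at that stage were -0.13, 0.07, and -0.01, the last of them 0.02 after rescaling.

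Of the *Etv* genes, *Etv5* (chromosome 16, from 22381382 to 22439792 in mm9) was the most abundant of the group in every column. Its level was 9.02 FPKM in control versus 8.87 in CKO ganglia at E11.5, a log2 ratio of -0.02, and 7.17 in wild-type and 4.63 in hypomorphic ganglia at E14.5. That log2 ratio of -0.62 was among the lowest of the E14.5 table, in which 1.85% of genes had a lower one, and it lay near the limit, at -0.54 with a pseudocount of 1. *Etv4* (chromosome 11, from 101631056 to 101646685) was at 1.13 FPKM in control versus 2.17 in CKO ganglia, a log2 ratio of 0.88 between values near the lower limit of the table, and 0.57 with a pseudocount of 1. At E14.5 it had 1.71 and 1.69 FPKM, a log2 ratio of -0.02 (0.01 after rescaling). *Etv1* was at 1.86 and 1.91 FPKM at E11.5 and at 1.0 and 1.1 at E14.5. Its log2 ratio at E11.5 was 0.03, which turned to -0.02 when the ratios were centred on the median of all genes and to -0.19 after rescaling, and at E14.5 it was 0.12. Per FPKM of *Etv4* there were 7.99 FPKM of *Etv5* in E11.5 control and 4.09 in CKO ganglia, and 4.19 in wild-type and 2.74 in hypomorphic ganglia at E14.5.

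**Figure D2:**
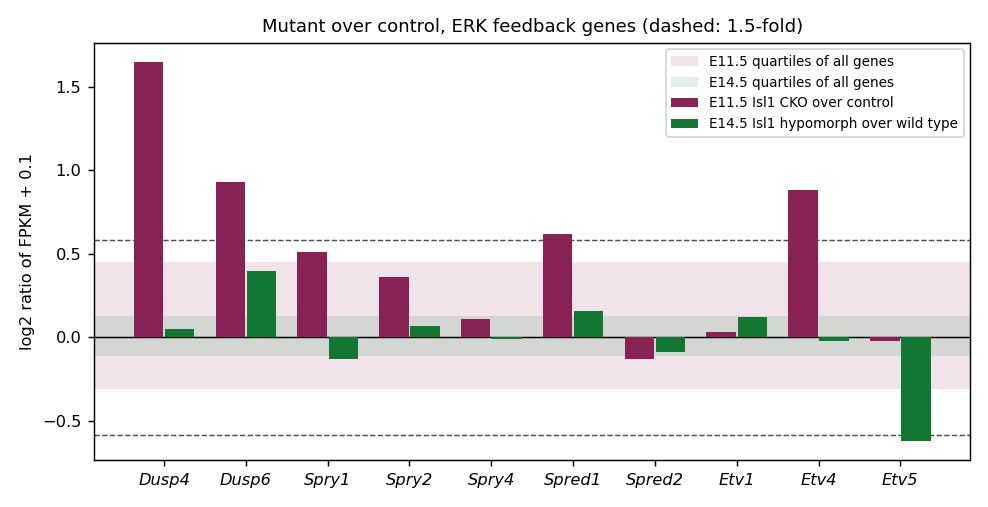
Bars give the log2 ratio of FPKM + 0.1, mutant over control, for the 10 ERK feedback genes at E11.5 and E14.5, shaded bands the quartiles of all genes at each stage, and dashed lines the 1.5-fold limits. 4 bars pass the upper limit at E11.5, with Dusp4 highest at 1.65, and at E14.5 the Etv5 bar alone passes a limit, at -0.62.

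Summed over the members, FPKM was 63.2 in control and 94.1 in CKO ganglia at E11.5, and 82.4 and 84.4 at E14.5. The 2 phosphatase genes made up 25.4% of this sum in E11.5 control and 38.5% in CKO ganglia, while the share of the 3 *Etv* genes was 19.0% and 13.8%. At E14.5 the phosphatase share was 27.4% and 31.3%, and the *Etv* share 12% and 8.79%. At both stages the phosphatase share was larger and the *Etv* share smaller in the mutant. The *Etv* sum itself was lower only at E14.5, with a log2 ratio of sums of 0.11 at E11.5 and -0.41 at E14.5. For the phosphatase sum these ratios were 1.17 and 0.23. The quotient of *Dusp6* to *Etv5* was 1.3 in control and 2.51 in CKO ganglia, and 1.51 and 3.08 at E14.5.

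The order of the levels was led by *Spred1* in E11.5 control ganglia, followed by *Dusp6* at 1.08 times less, *Spred2*, *Etv5*, and *Spry2*, and then by *Dusp4*, *Spry1*, *Spry4*, *Etv1*, and *Etv4*. In CKO ganglia *Dusp6* led, and *Dusp4* moved from the sixth place to the third. In E14.5 wild-type ganglia *Spred2* led, *Dusp4* was in the third place at 11.7 FPKM, and *Etv1* was last, 15.3 times under *Spred2*. Without values per library it is unknown which neighbours in these orders differ beyond their spread. In E11.5 controls the members lay between the percentile of *Etv4*, with 6.65% of genes below it, and that of *Spred1*, with 53.4% below it, so the group as a whole was of low to middling abundance.

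Control ganglia of the 2 stages come from tables that were normalized separately and differ in genotype, so the levels are set side by side without a test. *Dusp4* had 4.37 FPKM in E11.5 control and 11.7 in E14.5 wild-type ganglia (log2 difference 1.41), *Spry4* had 2.30 and 4.80 (1.03), *Spry1* had 3.18 and 5.40 (0.75), and *Spred2* had 9.45 and 15.3 (0.69). These 4 genes passed the 1.5-fold limit toward the later column. *Etv1* was lower there by the same limit (log2 difference -0.83). The share of all genes past this limit between these columns was not computed, so the counts are not a result about the members. *Dusp6* had 11.7 and 10.8 FPKM, and *Spred1* 12.6 and 13.6. The CKO value of *Dusp4* at E11.5, 13.9 FPKM, was close to both E14.5 values, whereas the CKO values of *Spry4* and *Spred2*, at 2.48 and 8.62, were close to the E11.5 control values.

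The rest of the pathway was described with 8 lists of 164 genes, of which 134 were in the E11.5 table and 131 in the E14.5 table. At E11.5, 39 of these genes were at least 1.5-fold higher and 14 lower in CKO ganglia. After rescaling without erythroid markers 21 were higher and 21 lower, beside 12.2% and 22.5% of all genes under the same rescaling. With 1 FPKM required in both genotypes and no rescaling, 28 of 120 were higher and 12 lower. The share of all genes under that filter was not computed, here or for the lists below. At E14.5, 4 were higher and 3 lower. With 1 FPKM in either genotype and no rescaling, the shares of all genes were 18.9% and 12.9% at E11.5 and 2.89% and 2.12% at E14.5.

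Among ligands, 3 of 10 FGF genes in the E11.5 table were higher in CKO ganglia, all at low values: *Fgf2* (0.398 and 1.63 FPKM), *Fgf5*, and *Fgf9*, which were named after their values had been seen. All 3 were under 1 FPKM in control and entered the table through the CKO column alone, and with 1 FPKM required in both genotypes 0 of 5 were higher. *Fgf15* was the single lower one, at 5.80 FPKM in control versus 0.387 in CKO ganglia, a log2 ratio of -3.60. The most abundant gene of the list was *Fgf13*, an intracellular family member, at 38.6 and 56.8 FPKM. Of 17 other ligands 6 were higher and 1 lower, and with a pseudocount of 1 the 6 became 2. With 1 FPKM required in both genotypes 4 of 15 were higher. *Nrtn*, which encodes the GDNF family ligand neurturin, was at 0.692 FPKM in control versus 7.10 in CKO ganglia, a log2 ratio of 3.19 for a gene that also entered through the CKO column, and *Pdgfc* had 2.51 and 5.15. The lower one was *Bdnf*, at 4.47 and 1.23 FPKM, named after its value had been seen. *Igf2* and *Mdk* were the most abundant, at 374 and 278 FPKM in control and 519 and 342 in CKO ganglia. At E14.5, 1 of 9 FGF genes was higher (*Fgf10*) and 1 lower (*Fgf14*), and of the 16 other ligands 1 was higher and 0 were lower. With 1 FPKM required in both genotypes 0 of 15 other ligands were higher. Both FGF genes were named after their values had been seen.

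Among 26 receptor genes in the E11.5 table, 10 were higher and 3 lower in CKO ganglia (median log2 ratio 0.53), and after rescaling 6 were higher and 5 lower. Of the higher ones, *Fgfr3*, *Met*, and *Ltk* were under 1 FPKM in control and entered the table through the CKO column alone. With 1 FPKM required in both genotypes and no rescaling, 7 of 22 were higher and 2 lower. *Gfra1*, a GDNF co-receptor, had 14 and 26.4 FPKM, *Erbb2* had 6.45 and 11.6, and *Fgfr2* had 2.97 and 5.09. Among the lower genes were *Alk* (7.80 and 3.93 FPKM), a receptor kinase that is mutated in neuroblastoma, and *Gfra3*, the artemin co-receptor (68.0 and 45.0). *Ret*, the signaling receptor of GDNF family ligands, had 106 and 97.6 FPKM. At E14.5, 2 of 25 receptor genes were higher and 1 lower. *Ret* had 68.8 FPKM in wild-type and 130 in hypomorphic ganglia, a log2 ratio of 0.91.

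Of 28 genes of kinases and adaptors between receptor and ERK, 2 were higher and 4 lower in CKO ganglia, beside 18.9% and 12.9% of all genes, and their median log2 ratio was -0.09. After rescaling 1 was higher and 7 lower, beside 12.2% and 22.5% of all genes. The lowest log2 ratio was that of *Ksr2*, a scaffold of the cascade (3.59 and 1.39 FPKM, -1.31), named after its value had been seen. *Mapk3*, which encodes an ERK kinase, was at 73.3 FPKM in control versus 90.7 in CKO ganglia. *Braf*, a Raf kinase, had 11.3 and 6.38 FPKM (log2 ratio -0.82), *Rps6ka6* had 27.5 and 16.4, and *Nras* had 68.5 and 45.3. *Rras* had 11.3 and 22.3 FPKM and *Gab1*, an adaptor, 15.6 and 24.6. At E14.5, 0 of the 28 genes passed the limit, and their log2 ratios ran from -0.288 to 0.437.

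Of 8 other dual-specificity phosphatase genes in the E11.5 table, 2 were higher in CKO ganglia and 0 lower. These were *Dusp5*, a nuclear ERK phosphatase, at 0.555 and 2.31 FPKM (log2 ratio 1.88), and *Dusp14*, at 0.500 and 1.08, both named after their values had been seen. Both were under 1 FPKM in control and entered the table through the CKO column alone, and with 1 FPKM required in both genotypes 0 of 6 were higher. *Dusp8* and *Dusp1*, the most abundant of the list, had 28.9 and 15.3 FPKM in control and 26.5 and 17.4 in CKO ganglia. Of 16 other inhibitors, 5 were higher and 3 lower, but 0 were higher and 5 lower after rescaling. *Flrt3*, *Lrig1*, and *Lrig3* had log2 ratios of 0.79, 0.79, and 0.75, and *Nf1*, *Rasal2*, and *Cbl* of -0.73, -0.70, and -0.66. At E14.5, 0 of 7 phosphatase genes and 0 of 16 inhibitor genes passed the limit.

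Among 12 ETS and repressor genes, *Ets1* (14.7 and 24.2 FPKM) and *Elk3* (13.2 and 21.3) were higher in CKO ganglia, and neither was after rescaling. *Cic*, whose protein represses the *Etv* genes until ERK inactivates it, was lower, at 24.4 and 15.6 FPKM, a log2 ratio of -0.65. At E14.5 *Cic* had 46.1 and 42.0 FPKM, and 0 of the 12 passed the limit. Of 17 immediate early and target genes in the E11.5 table, 9 were higher and 1 lower in CKO ganglia (median log2 ratio 0.71), and 6 were higher after rescaling. With 1 FPKM required in both genotypes and no rescaling, 8 of 16 were higher. *Zfp36* had 2.27 and 5.52 FPKM, *Junb* had 2.44 and 5.93, and *Nr4a1* had 3.45 and 6.26. *Jun*, the most abundant of the immediate early genes, had 51.0 and 54.3 FPKM. The lower one was *Ccnd1*, the gene of the G1 cyclin D1, at 831 and 123 FPKM (log2 ratio -2.75). At E14.5, 0 of 18 were higher and 1 was lower, *Ier3*, at 5.75 and 3.69 FPKM.

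**Figure D3:**
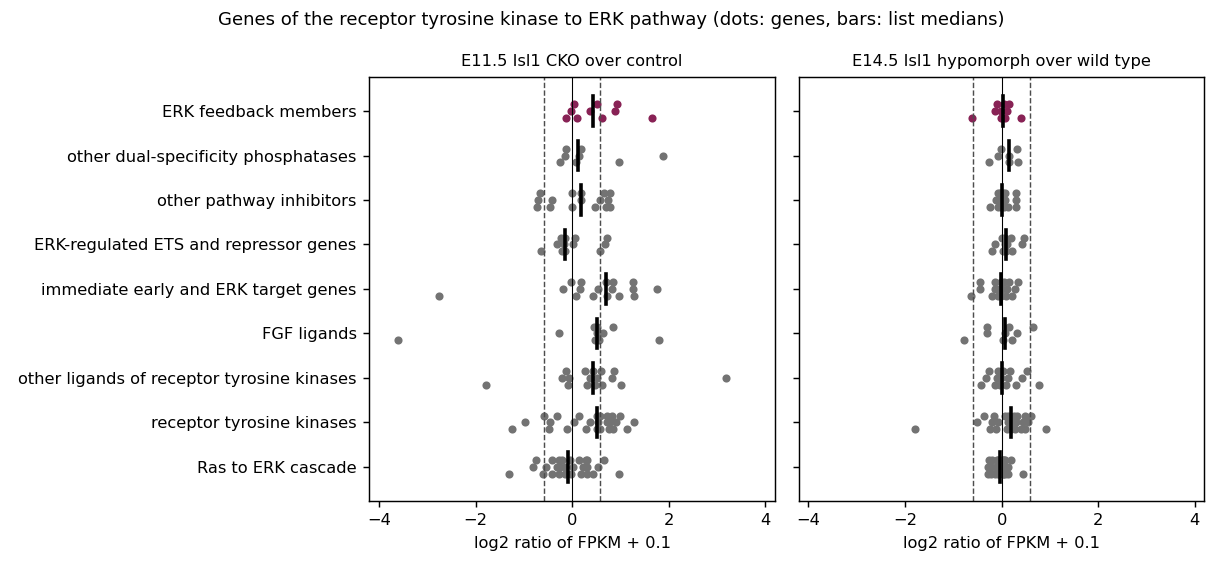
Each dot is the log2 ratio of FPKM + 0.1 of 1 gene, mutant over control, at E11.5 (left) and E14.5 (right), in rows for the ERK feedback genes (purple) and the 8 other pathway lists (grey), with black bars for list medians and dashed lines at 1.5-fold. At E11.5 the medians run from -0.15 for ETS and repressor genes to 0.71 for immediate early and target genes, and at E14.5 all medians lie between -0.02 and 0.19.

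Markers of several cell types moved with the E11.5 comparison. All 12 neural crest and glial markers passed the 1.5-fold limit upward in CKO ganglia, their median log2 ratio being 1.17, with a summed level of 349 FPKM in control and 777 in CKO ganglia. Of the 10 ERK feedback genes, *Dusp4* alone had a log2 ratio above this median. Of 12 mesenchyme markers 7 were higher (780 and 1326 FPKM in sum), of 8 macrophage markers 7 (44.0 and 103), of 9 skeletal muscle markers 4 (278 and 448), and of 10 endothelial markers 2 (81.1 and 106). Beside these counts, 18.9% of all genes were higher, and the endothelial count lay near that share. No marker count was repeated after rescaling without erythroid markers. All 13 parietal yolk sac and trophoblast markers in the table were higher, with sums of 184 and 710 FPKM. Of the 15 listed, *Prl3d1* and *Tpbpa* were absent from it. *Sparc* was the largest part of both sums, at 129 and 369 FPKM, and it had 251 FPKM in E14.5 wild-type ganglia. Among the 13 markers, *Gata4*, *Sox17*, *Prl8a2*, *Prl7a1*, and *Krt8* were under 1 FPKM in control, as was *Dpt* of the mesenchyme list. Such genes entered the table through the CKO column alone, so they could only be higher. Of 11 erythroid markers 10 were higher, with sums of 10887 and 69070 FPKM, while *Hbb-y* was listed at 0 in CKO ganglia. Of 12 sympathetic neuron markers 4 were lower and 0 higher (3256 and 2861 FPKM), beside 12.9% of all genes lower. No other marker of these lists was at 0 in either column. The part of these cells in the values of the ERK feedback genes was not tested, and in bulk RNA fewer cells of a type and less RNA per cell cannot be told apart.

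For *Dusp6* the quotient to *Sox10*, the glial transcription factor, was 0.398 in control and 0.376 in CKO ganglia, so both genes were higher by nearly the same factor, while that of *Dusp4* to *Sox10* was 0.149 and 0.235. This pair of quotients was chosen after the values had been seen. At E14.5, 0 of 12 neural crest and glial markers passed the limit (518 and 586 FPKM in sum), and the quotients were 0.377 and 0.470 for *Dusp6* and 0.410 and 0.399 for *Dusp4*. In the same columns 0 of 11 mesenchyme, 0 of 8 macrophage, 0 of 8 skeletal muscle, and 1 of 10 endothelial markers were higher, the last with sums of 109 and 151 FPKM. Of 12 sympathetic neuron markers 1 was higher and 1 lower, of 13 erythroid markers 3 were higher and 1 lower, and of 9 yolk sac and trophoblast markers 0 were higher and 1 lower. Over all genes 2.89% were higher and 2.12% lower at this stage. The sums of the sympathetic neuron markers were 5874 FPKM in wild-type and 4816 in hypomorphic ganglia, 0.820 of the wild-type sum, beside a fold of 0.651 for *Etv5*.

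**Figure D4:**
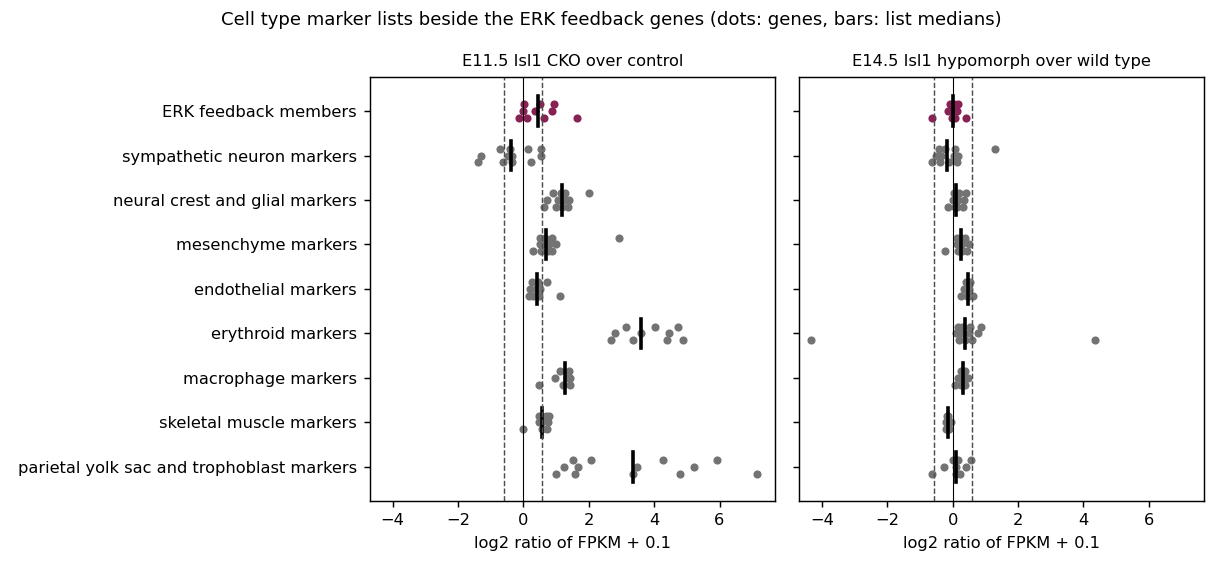
Each dot is the log2 ratio of FPKM + 0.1 of 1 gene, mutant over control, for the ERK feedback genes (purple) and 8 cell type marker lists (grey) at E11.5 (left) and E14.5 (right), with black bars for list medians and dashed lines at 1.5-fold. Hbb-y, listed at 0 in E11.5 CKO ganglia, lies off the axis, and the neural crest and glial median is 1.17 at E11.5 and 0.12 at E14.5.

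Genes with the most similar pattern were sought among 8999 genes that reached 5 FPKM in at least 1 column of each table, by the distance over 3 values, which were both log2 ratios and the log2 difference of the control columns. For *Spred1* the nearest gene was *Il17rd*, which encodes the FGF signaling inhibitor Sef, at a distance of 0.045, with 7.35 and 11.7 FPKM at E11.5 and 7.94 and 8.71 at E14.5. For *Dusp6* the nearest were *Mfng* (0.118), a modifier of Notch receptors, and *Ppic* (0.123). For *Dusp4* no gene came closer than *Fam214b*, at 0.229, and *Lrrtm1* followed at 0.252. *Etv5* had 1 near gene, *Slc10a4*, at 0.079, with 66.5 and 63.2 FPKM at E11.5 and 51.1 and 34.1 at E14.5, and the next, *Tuba1a*, was at 0.439. *Spry2* and *Spred2* had nearest genes at 0.040 (*Tpst2*) and 0.015 (*Cpeb4*). The points rest on 4 combined columns.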

How the data were processed

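With cuffdiff the authors computed the deposited FPKM values from polyA RNA, one stage at a time, and these combine both libraries of a genotype. The study's methods name mm9 and later versions of TopHat and cuffdiff, whereas the submitters' processing notes list dm3, TopHat 1.3.1, and Cuffdiff 1.3.0, and the conflict in build and versions was not resolved. Genes below 1 FPKM in both genotypes are absent from both tables, and 22 and 23 symbols had been turned into spreadsheet dates. Each also holds the authors' log2 fold changes and p-values, which were not used. Log2 ratios were computed here with a pseudocount of 0.1, and the minimum of 1 FPKM removed 0 genes. The calculation was tested on simulated data.

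The members and lists were chosen with earlier results of these data known. Named genes were all members and *Isl1*, and from each list the 2 most abundant genes and, per stage, up to 3 with the largest ratio in each direction past 1.5-fold at an FPKM of 5 or more, and some of these are not reported here. The 3 nearest genes by pattern were found without microRNA, small RNA, and unnamed genes. Also tried were a pseudocount of 1 or 0.01, no filter, an FPKM of 5 in either or 1 in both genotypes, centring on the median, rescaling to equal column sums without erythroid markers, and a fold limit of 2 or 1.2. Gene positions are those of the mm9 annotation. Python 3.11.15, numpy 2.4.6, pandas 2.3.3, and matplotlib 3.10.9 were used.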

Additional observations from a re-analysis of the deposited data

How the results depend on the processing

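Depth and the spread between libraries are unknown, and the authors' p-values were not used. A difference near the 1.5-fold limit, such as those of *Spred1*, *Etv4*, and *Etv5*, was therefore not set against an error here. The paper names *Etv5* among the direct ISL1 targets that were lower in hypomorphic ganglia. No paired analysis was possible because the tables hold 1 combined value per genotype, and for the same reason no library could be left out. Of 153 alternative values of single members, 152 moved by 0.26 or less on the log2 scale, and *Etv4* moved to 0.57 with a pseudocount of 1. Filters on FPKM only drop genes and cannot change a member's ratio, so the values under them were bound to stay. Centring and rescaling shift the ratios of a stage together. The 152 values are therefore not a measure of how stable the ratios are. Counts were less stable. Of 320 alternative counts of single pathway lists, 74 moved by over 1.5 times, as did 18 of 98 values of the counts and medians over members, over all pathway genes, and between control columns. The median log2 ratio of the members moved by no more than 0.26 at either stage under the alternatives tried.

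With a fold limit of 2, 1 member was higher at E11.5 (*Dusp4*) and 0 were lower at E14.5, and pathway genes counted 10 higher and 5 lower at E11.5 and 0 higher and 1 lower at E14.5. With a limit of 1.2, *Dusp6* was the 1 member higher at E14.5, and pathway genes counted 68 and 28 at E11.5 and 26 and 13 at E14.5. A pseudocount of 1 left 0 members lower at E14.5 and 1 pathway gene higher and 1 lower. Requiring 5 FPKM or more in 1 genotype left 22 pathway genes higher at E11.5 and 1 at E14.5. Rescaling without erythroid markers left 21 higher at E11.5, and 22 when yolk sac and trophoblast markers were also left out, an alternative chosen after seeing the data. The minimum of 5 FPKM left 96 pathway genes at E11.5 in place of 134. Except for rescaling without erythroid markers, the share of all genes under these alternatives was not computed. These counts are therefore not a result about the members or the pathway. A fold limit of 2 or 1.2 changes the counts by definition. Why they moved under the other alternatives was not tested.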
